A study of Mus musculus with 13 samples.

Results

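Complement genes were followed by bulk RNA sequencing in mouse lymph nodes that drain a tumour (tdLN) and in the melanomas themselves. The set holds 9 genes, which were chosen by name and matched by Ensembl identifier through GENCODE M21, among 49315 gene rows in the deposited tables. It covers 4 components of the cascade (C3, C4b, Cfb and C1s1), the soluble inhibitor gene Serping1, the membrane regulator genes Cd55 and Cd59a, and the anaphylatoxin receptor genes C3ar1 and C5ar1. All 9 passed the filter on low counts in both comparisons.

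The series title places the study in lymphatic remodelling of draining nodes by Jagged-1-positive regulatory T cells (Tregs). Foxp3ΔJag1 mice were female, carried Foxp3eGFP-Cre-ERT2, a Cre recombinase driven by Foxp3 and active after tamoxifen, and had both copies of Jag1 floxed (fl/fl). Their Foxp3Ctrl controls are given as WT in one label and as fl/wt with the same Cre in the design text, so that the control genotype is not settled. Both kinds of mice were dosed with tamoxifen 5 times at 6 to 8 weeks of age, at 0.1 mg per gram of weight, and received, after 9 days of washout and by 11 weeks of age at the latest, an intradermal flank injection of 200000 B16F10 cells, a pigmented mouse melanoma line, with matrigel. The libraries were 3 Foxp3ΔJag1 tdLN, 3 Foxp3Ctrl tumours and 3 Foxp3Ctrl tdLN, each from whole tissue, and by their library names the control tumours and nodes with the same replicate number came from the same mouse. Foxp3ΔJag1 tumours were not analysed here.

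Complement is a cascade of plasma and cell-surface proteins. The classical and lectin routes, with C1 and C4, and the alternative route, with factor B, converge on cleavage of C3, after which fragments tag targets, attract cells through anaphylatoxin receptors or start the membrane attack complex. Regulators on host cells and in plasma hold each step back, and in lymphoid tissue C3 fragments also bind complement receptors on B cells and follicular dendritic cells.

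Total counts per library lay between 32117478 and 44540888. Jag1, the targeted gene, had 27.8, 20.7 and 23.8 CPM (counts scaled to the library total) in Foxp3ΔJag1 nodes against 22.0, 23.2 and 24.4 CPM in Foxp3Ctrl nodes, a log2 fold change of 0.03 with an adjusted p of 0.984 in the edgeR quasi-likelihood test. Counts are summed over the whole gene and Tregs are a part of the node, so the deletion itself was not checked by this value. Foxp3 had a log2 fold change of 0.28 between the node groups (edgeR adjusted p = 0.953). Genes that mark B cells summed to between 3490.46 and 3918 CPM in Foxp3ΔJag1 nodes and to between 3462 and 3753 CPM in Foxp3Ctrl nodes, and genes that mark melanocytes to between 17043 and 22392 CPM in the tumours. Foxp3Ctrl nodes 2 and 3 stood apart in some other lists. Mammary and glandular epithelium genes summed to between 7.30 and 11.0 CPM in Foxp3ΔJag1 nodes and to 13.2, 38.1 and 149 CPM in Foxp3Ctrl nodes 1, 2 and 3. Lymphatic endothelium genes summed to between 114 and 127 CPM in Foxp3ΔJag1 nodes and to 158, 270.2 and 68.4 CPM in Foxp3Ctrl nodes 1, 2 and 3. In whole tissue, fewer cells of a type and less RNA per cell cannot be told apart.

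Within the nodes C3 had the highest level of the 9 genes per kilobase of exon, at 302 ± 41.4 CPM per kb in Foxp3ΔJag1 nodes and 333 ± 68.5 CPM per kb in Foxp3Ctrl nodes (SD, n = 3 each). Serping1 followed at 69.1 ± 3.94 CPM per kb in Foxp3ΔJag1 nodes and 71.9 ± 13.9 CPM per kb in Foxp3Ctrl nodes. C4b and Cd55 came next, at 53.0 ± 5.56 and 54.2 ± 2.32 CPM per kb in Foxp3ΔJag1 nodes and 54.4 ± 5.82 and 53.7 ± 2.12 CPM per kb in Foxp3Ctrl nodes, and did not differ beyond their spread. C1s1 had 34.8 ± 15.8 CPM per kb in Foxp3ΔJag1 nodes and 42.2 ± 17.8 CPM per kb in Foxp3Ctrl nodes, and in Foxp3Ctrl nodes it did not differ from C4b and Cd55 beyond its spread. Cfb and Cd59a stood below these, and C5ar1 and C3ar1 were lowest, at 0.719 ± 0.209 and 0.279 ± 0.0934 CPM per kb in Foxp3ΔJag1 nodes and 0.936 ± 0.645 and 0.267 ± 0.106 CPM per kb in Foxp3Ctrl nodes.

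In tumours the order was another one. C4b had the highest mean at 67.4 ± 31.0 CPM per kb, followed by C3 at 29.0 ± 9.33 and Serping1 at 28.8 ± 11.0 CPM per kb (SD, n = 3). The SDs of C4b, C3 and Serping1 overlapped. C1s1, C3ar1, C5ar1 and Cd59a formed a group between 7.24 and 9.59 CPM per kb, within which the SDs overlapped. Cfb had 4.48 ± 1.46 CPM per kb, and its SD overlapped those of C1s1 and Cd59a. Cd55 was last with 0.737 ± 0.423 CPM per kb. C3 made up between 19.5% and 24.1% of the summed CPM of the 9 genes in tumours and between 62.0% and 66.6% of it in the 6 nodes.

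**Figure D1:**
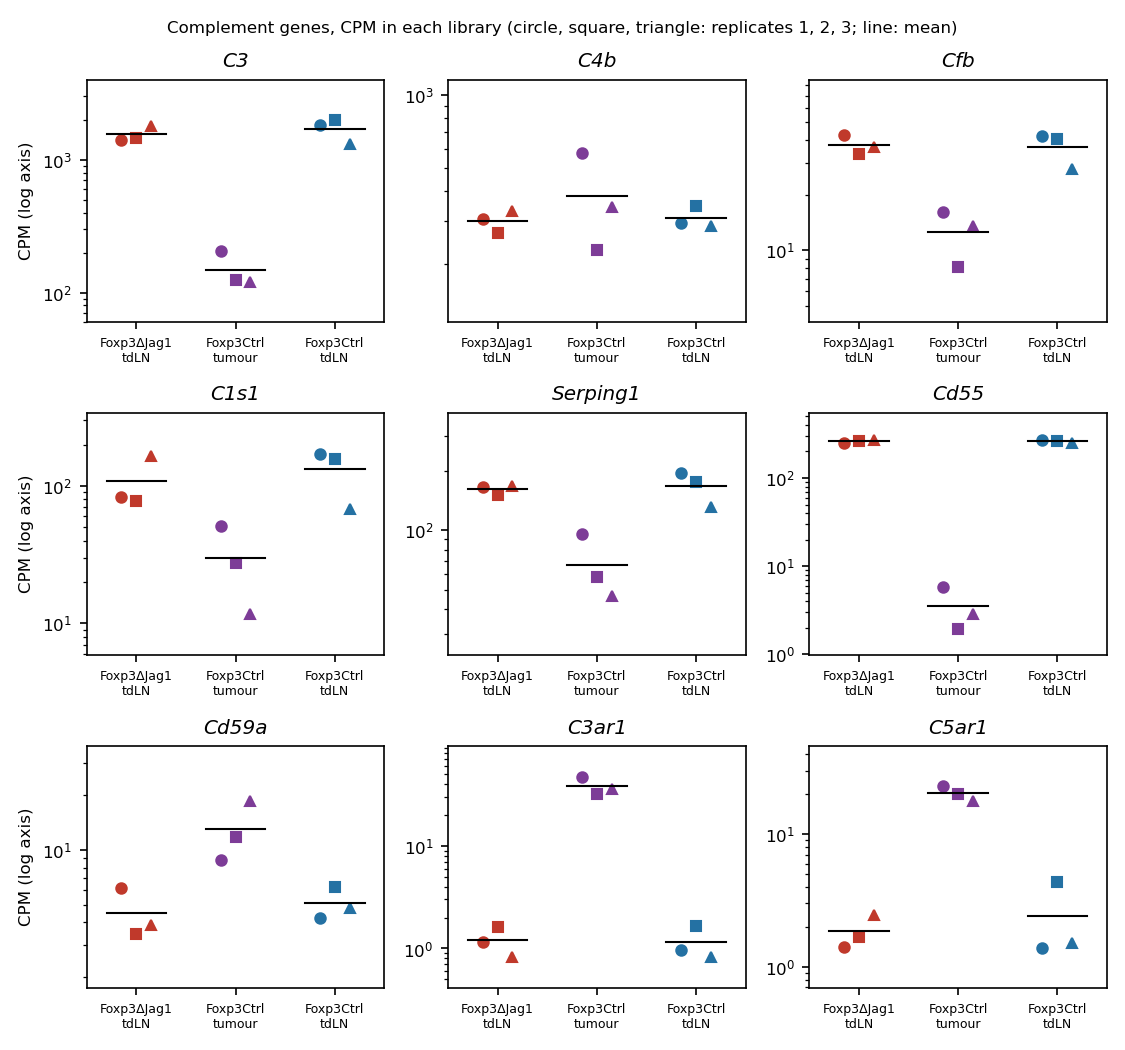
CPM of each of the 9 complement genes in each library on a log axis, with Foxp3ΔJag1 tdLN, Foxp3Ctrl tumour and Foxp3Ctrl tdLN from left to right; circles, squares and triangles are replicates 1, 2 and 3, and lines are means. The node groups overlap for all 9 genes, while tumours lie apart from Foxp3Ctrl nodes for all but C4b.

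The first comparison asked how complement transcripts differed between Foxp3ΔJag1 and Foxp3Ctrl draining nodes. None of the 9 genes passed the edgeR test, and for none did the node groups separate. Over all 18440 genes tested, 0.038% were called (0.0325% higher and 0.00542% lower), and 7.29% had groups that did not overlap (4.11% higher and 3.18% lower). The median log2 fold change of the 9 genes was -0.09, with 2 positive and 7 negative values, against 0.00 over all genes (-0.0045). Unadjusted, 0 of the 9 had a p under 0.05, against 581 of all 18440 genes. DESeq2 and limma-voom also called 0 of the 9, against 44 and 6 of all genes. Without Foxp3Ctrl node 3 the number of all genes with an unadjusted p under 0.05 was 3175, and the log2 fold changes of the 9 were all negative, from -0.68 for C5ar1 to -0.06 for Cd55. The median over all genes in that fit was -0.0001. None of the 9 was called then either, with edgeR adjusted p between 0.211 for Serping1 and 0.794 for C3ar1. Leaving out Foxp3Ctrl node 2 instead gave positive values for C4b, Cfb, Cd55, C3ar1 and C5ar1, up to 0.41 for C3ar1, and negative values for the other members.

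C3 (chromosome 17, 57203970 to 57228136), whose product is the point where all routes meet, had 1396, 1465 and 1795 CPM in Foxp3ΔJag1 nodes 1, 2 and 3, against 1826, 1990.35 and 1315 CPM in Foxp3Ctrl nodes 1, 2 and 3. Control node 3 was the lowest of all 6 and control node 2 the highest, so the Foxp3ΔJag1 values fell inside the control range. The log2 fold change was -0.17 with a 95% interval from -0.58 to 0.25 (edgeR adjusted p = 0.953). In the control nodes the order of C3 was that of the fibroblast and reticular stroma markers, a list of 10 genes, which summed to 777, 933 and 468 CPM in nodes 1, 2 and 3. In the Foxp3ΔJag1 nodes that list summed to 499, 703 and 622 CPM, which was not the order of C3. The lymphatic endothelium genes also had the order of C3 in the control nodes, at 158, 270.2 and 68.4 CPM, but not in the Foxp3ΔJag1 nodes. The part of either list in the C3 values was not tested.

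C4b (chromosome 17, 34728380 to 34743882), which encodes the C4 used by the classical and lectin routes, had 307, 268 and 331 CPM in Foxp3ΔJag1 nodes and 296, 348 and 286 CPM in Foxp3Ctrl nodes. The groups overlapped, and the 95% interval of the log2 fold change ran from -0.31 to 0.19 (edgeR adjusted p = 0.958). Cfb (chromosome 17, 34856374 to 34862518), the protease of the alternative route, had 42.5, 33.4 and 36.5 CPM in Foxp3ΔJag1 nodes and 42.0, 40.4 and 27.7 CPM in Foxp3Ctrl nodes. Its interval ran from -0.41 to 0.42 around a fold change near 0 (edgeR adjusted p = 1.00), and control node 3 was again lowest.

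C1s1 (chromosome 6, 124530345 to 124542359), which encodes the C1s protease that cleaves C4, was widely spread in both node groups. It had 82.6, 78.1 and 166 CPM in Foxp3ΔJag1 nodes 1, 2 and 3 and 170, 158 and 68.3 CPM in Foxp3Ctrl nodes 1, 2 and 3. The 6 nodes thus held 3 high and 3 low values, and both kinds occurred in both groups. The log2 fold change of -0.31 had a 95% interval from -1.68 to 1.05 (edgeR adjusted p = 0.956).

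The low C1s1 values coincided with a shift between near copies in the same stretch of chromosome 6, which was singled out after the values were seen and is given without a test. C1ra and its copy C1rb encode C1r, the protease that activates C1s, and C1s1 has a copy, C1s2. C1rb had 37.2, 38.4 and 0.965 CPM in Foxp3ΔJag1 nodes 1, 2 and 3, against 1.16, 1.32 and 32.9 CPM in Foxp3Ctrl nodes 1, 2 and 3. Its share of the counts of both C1r genes was 48.7%, 47.7% and 1.24% in Foxp3ΔJag1 nodes and 1.40%, 1.63% and 46.3% in Foxp3Ctrl nodes. The Wilson 95% interval, which covers counting error only, was 46.9% to 50.5% for Foxp3ΔJag1 node 1 and 44.3% to 48.2% for Foxp3Ctrl node 3. The same 3 nodes were therefore high in C1rb and low in C1s1, and they belonged to both genotypes.

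C1ra moved the other way, with 39.2, 42.1 and 76.8 CPM in Foxp3ΔJag1 nodes and 81.6, 79.8 and 38.1 CPM in Foxp3Ctrl nodes. The sum of C1ra and C1rb was nearly level as a result, at 76.5, 80.5 and 77.8 CPM in Foxp3ΔJag1 nodes and 82.7, 81.1 and 71.0 CPM in Foxp3Ctrl nodes. C1s2 was low throughout, and its share of the counts of both C1s genes was 7.03%, 7.07% and 1.27% in Foxp3ΔJag1 nodes and 1.38%, 1.46% and 5.76% in Foxp3Ctrl nodes. Those shares were raised in the same 3 nodes, but the sum of C1s1 and C1s2 still differed between them, at 88.8, 84.0 and 168 CPM in Foxp3ΔJag1 nodes and 172, 161 and 72.5 CPM in Foxp3Ctrl nodes.

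Among tumours, C1rb took 0.326%, 0.512% and 8.60% of the C1r counts in replicates 1, 2 and 3. The raised share in tumour 3 came with the raised share in control node 3, which by the library names is the same mouse. C1s1 was also lowest in that tumour, at 11.7 CPM against 51.0 and 27.4 CPM in tumours 1 and 2. Over the 6 nodes the highest value was 39.8 times the lowest for C1rb and 2.49 times for C1s1. Among neighbouring genes within 200000 bases it was 1.14 times for Pex5, 1.16 times for C1rl and 1.33 times for Lpcat3. It was larger for Eno2 (2.12 times), Tpi1 (1.60 times) and Cdca3 (1.56 times). Tpi1 and Cdca3 were lower in every node high in C1rb than in any other node, as C1s1 was. Eno2 was highest in Foxp3ΔJag1 node 1 and Foxp3Ctrl node 3, both high in C1rb. Its values overlapped between the nodes high and low in C1rb. Whether these differences belong with the C1rb split was not tested.

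The coding sequences of C1ra and C1rb were identical at 98.0% of aligned bases, with 42 of 2118 differing, and those of C1s1 and C1s2 at 95.7%, with 90 of 2082 differing. Of all 100-base windows of the C1ra transcript, 34.5% also occurred in C1rb, and for C1s1 and C1s2 this was 7.90%, so that part of the reads could be assigned to either copy. The level of each single copy is uncertain to that extent. Whether the split between nodes lies in expression or in a genomic difference between the mice in this stretch cannot be told apart from these counts, and this holds for the values of C1s1, C1ra and C1rb alike. Counts of the copies summed into 1 feature gave a log2 fold change of -0.28 for C1s1 with C1s2 (edgeR adjusted p = 0.964) and of -0.02 for C1ra with C1rb (edgeR adjusted p = 0.987) between the node groups. The stretches below, from the GENCODE M21 coding sequences on GRCm38, show how close the copies are and are written 5′ to 3′ with the bases that differ between the copies in capitals. The C1r stretches span chr6:124517477-124517780 (C1ra) and chr6:124575022-124575325 (C1rb) on the plus strand, and the C1s stretches chr6:124537479-124540432 (C1s1) and chr6:124632180-124635126 (C1s2) on the minus strand, introns left out.
C1ra: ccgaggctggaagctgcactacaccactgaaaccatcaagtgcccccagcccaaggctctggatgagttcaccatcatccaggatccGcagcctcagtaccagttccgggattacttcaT
C1rb: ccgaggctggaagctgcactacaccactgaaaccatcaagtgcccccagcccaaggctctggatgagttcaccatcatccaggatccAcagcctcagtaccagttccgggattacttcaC
C1s1: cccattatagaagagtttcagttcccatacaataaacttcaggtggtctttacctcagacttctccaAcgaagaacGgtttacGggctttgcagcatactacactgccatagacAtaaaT
C1s2: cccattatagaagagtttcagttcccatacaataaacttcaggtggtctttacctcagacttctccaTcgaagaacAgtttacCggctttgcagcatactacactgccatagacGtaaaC
Over these 120 coding bases the C1r copies differ at 2 positions and the C1s copies at 5.

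**Figure D2:**
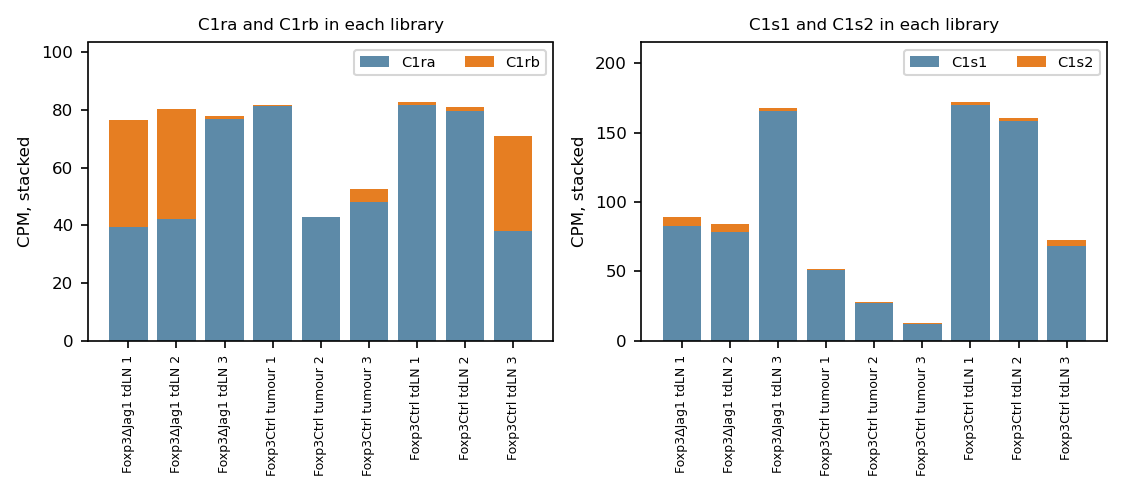
Stacked CPM of C1ra and C1rb (left) and of C1s1 and C1s2 (right) in each of the 9 libraries. C1rb is large in Foxp3ΔJag1 tdLN 1 and 2 and in Foxp3Ctrl tdLN 3, the same 3 nodes in which C1s1 lies between 68.3 and 82.6 CPM.

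Serping1 (chromosome 2, 84765387 to 84775444), which encodes the C1 inhibitor that blocks C1r and C1s, had 165, 150.2 and 167 CPM in Foxp3ΔJag1 nodes and 195, 175 and 132 CPM in Foxp3Ctrl nodes. The Foxp3ΔJag1 values lay inside the control range, with an interval of the log2 fold change from -0.43 to 0.26 (edgeR adjusted p = 0.956). Cd55 (chromosome 1, 130439027 to 130462744), the decay-accelerating factor that takes C3 convertases apart, was the most even member in the nodes. It had 251, 265 and 273 CPM in Foxp3ΔJag1 nodes and 269, 263 and 249 CPM in Foxp3Ctrl nodes, with the narrowest interval of the 9 genes, from -0.18 to 0.16 (edgeR adjusted p = 0.992). Cd59a (chromosome 2, 104095801 to 104115354), which blocks the membrane attack complex, was low at 6.20, 3.47 and 3.88 CPM in Foxp3ΔJag1 nodes and 4.24, 6.25 and 4.79 CPM in Foxp3Ctrl nodes, and the groups overlapped (log2 fold change -0.20, edgeR adjusted p = 0.953).

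C3ar1 (chromosome 6, 122847138 to 122856161), the receptor for C3a, had 1.15, 1.63 and 0.831 CPM in Foxp3ΔJag1 nodes and 0.964, 1.67 and 0.818 CPM in Foxp3Ctrl nodes. C5ar1 (chromosome 7, 16246743 to 16259540), the receptor for C5a, had 1.41, 1.69 and 2.45 CPM in Foxp3ΔJag1 nodes and 1.38, 4.32 and 1.52 CPM in Foxp3Ctrl nodes. Control node 2 stood above the rest for C5ar1, and both receptors overlapped between groups. Their intervals ran from -0.83 to 0.85 for C3ar1 and from -1.52 to 0.69 for C5ar1 on the log2 scale (edgeR adjusted p = 0.999 and 0.953). Changes within these bounds remain possible. Neutrophil markers, which include no member, also differed between single nodes, with the list of 8 genes summing to 55.1, 88.1 and 163 CPM in Foxp3ΔJag1 nodes and to 97.1, 186 and 148 CPM in Foxp3Ctrl nodes. Control node 2 had the highest sum, as for C5ar1. It was also the highest control node for most macrophage and monocyte markers, but not for Lyz2 and Ly6c2. Csf1r, for example, had 211, 308 and 129 CPM in Foxp3Ctrl nodes 1, 2 and 3. The stroma and lymphatic endothelium lists were likewise highest in control node 2. The part of any of these cells in the result was not tested.

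The rest of the pathway was read from 48 further genes of the cascade, its regulators and receptors. In the node comparison 35 of the 48 were tested and 0 were called with edgeR, DESeq2 or limma-voom, with a median log2 fold change of -0.02. The smallest p-values belonged to Cr1l, which encodes the mouse membrane regulator Crry (log2 fold change -0.22), to Hc, the C5 gene (-0.57), and to Colec11, a lectin-route collectin (-0.72). Their unadjusted p in edgeR were 0.0354, 0.0443 and 0.0454, and each had an adjusted p of 0.953. These were also the 3 genes of the list whose node groups did not overlap, all 3 lower in Foxp3ΔJag1 nodes, as were 3.18% of all genes tested. Cr1l had 98.3, 83.3 and 104 CPM in Foxp3ΔJag1 nodes against 109, 111 and 107 CPM in Foxp3Ctrl nodes.

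The second comparison set the 3 Foxp3Ctrl tumours against the Foxp3Ctrl nodes, which also serve as controls in the first. C3, Cfb, C1s1, Serping1 and Cd55 fell in tumours, C3ar1, C5ar1 and Cd59a rose, and C4b did not pass the edgeR test. The tissues differ in most of their transcriptome, so these calls stand against a high background: 35.6% of the 18566 genes tested were called higher and 37.6% lower, 73.2% in all. Without control node 3 all 8 calls held. The median log2 fold change was -1.27 over the 9 genes and -0.05 over all genes. For 8 of the 9 the groups did not overlap (3 higher and 5 lower in tumours), against 77.9% of all genes tested (36.5% higher and 41.5% lower).

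C3 had 204, 123 and 119 CPM in tumours 1, 2 and 3 against 1826, 1990.35 and 1315 CPM in Foxp3Ctrl nodes. Every tumour was far below every node, 11.1-fold lower in the fit (log2 fold change -3.47 ± 0.29 SE, edgeR adjusted p = 2.72e-05). Cfb had 16.2, 8.10 and 13.6 CPM in tumours and 42.0, 40.4 and 27.7 CPM in Foxp3Ctrl nodes. It fell 2.82-fold (log2 fold change -1.49 ± 0.29 SE, edgeR adjusted p = 0.00231), again without overlap.

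The bases just before the C3 start (chr17:57228137-57228386, minus strand, from RefSeq on GRCm38.p6) are shown because C3 was the most abundant member in the nodes and one of those that fell furthest. Both strands of this window, and of the windows before Cd55 and C3ar1, the members with the steepest fall and rise, were searched for a C/EBP core TTGCNNAA and an Ets core GAGGAA. In the C3 window the C/EBP core had 1 match, in capitals, beginning at position -45 from the start, and GAGGAA had 0. The windows of Cd55 and C3ar1 had 0 matches to either word.
C3: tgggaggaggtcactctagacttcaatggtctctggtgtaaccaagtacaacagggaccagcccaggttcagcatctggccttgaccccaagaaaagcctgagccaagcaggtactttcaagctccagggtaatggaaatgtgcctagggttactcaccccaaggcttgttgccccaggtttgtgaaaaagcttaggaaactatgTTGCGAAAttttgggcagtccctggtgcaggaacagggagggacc
Of 32851 promoter windows of 250 bases, 9.56% held the C/EBP core and 23.3% held GAGGAA. A match is a description of the letters only.

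C4b, in contrast, had 576, 229 and 345 CPM in tumours 1, 2 and 3 and 296, 348 and 286 CPM in Foxp3Ctrl nodes. Tumour 1 was above all nodes, tumour 2 below all of them and tumour 3 among them. The log2 fold change was 0.36 with a 95% interval from -0.40 to 1.11 (edgeR adjusted p = 0.340). Without tumour 1 it was -0.03 (edgeR adjusted p = 0.886), and without tumour 2 it was 0.65 and passed (edgeR adjusted p = 0.0386). The 13 interferon response genes summed to 4101, 1268 and 1865 CPM in tumours 1, 2 and 3 and to 1217, 1094 and 1455 CPM in Foxp3Ctrl nodes. The sum had the order of C4b among the tumours but not among the control nodes, and single genes of the list, such as Isg15 with 105, 51.1 and 45.9 CPM in tumours 1, 2 and 3, had another order. The macrophage and monocyte markers also had the order of C4b among the tumours, at 931, 503 and 693 CPM. The sums of the neutrophil and mast cell markers had it too. Of the 13 interferon response genes, 7 were higher and 1, Irf9, was lower in every tumour than in any control node. Their part in the C4b values was not tested. The copy C4a, in which 16.5% of the 100-base windows of the C4b transcript also occur, stayed between 1.37 and 3.70 CPM in all 9 libraries. It passed the test between tumour and control node without control node 3 alone (log2 fold change 0.77, edgeR adjusted p = 0.0425).

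C1s1 had 51.0, 27.4 and 11.7 CPM in tumours and 170, 158 and 68.3 CPM in Foxp3Ctrl nodes. It fell 4.28-fold (log2 fold change -2.10 ± 0.64 SE, edgeR adjusted p = 0.0264). This call depended on single libraries, since the edgeR adjusted p was 0.0752 without control node 2, 0.0956 without tumour 2 and 0.0532 without tumour 3, and without tumour 1 the log2 fold change was -2.69. It also was lost with no filter on low counts (edgeR adjusted p = 0.0903). C1s1 and C1s2 counted together gave -2.10 (edgeR adjusted p = 0.0226), and C1s2 by itself fell by 2.24 on the log2 scale (edgeR adjusted p = 0.000546).

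Serping1 had 95.8, 58.3 and 47.0 CPM in tumours and 195, 175 and 132 CPM in Foxp3Ctrl nodes. It fell 2.41-fold (log2 fold change -1.27 ± 0.29 SE, edgeR adjusted p = 0.00675). Serping1, C1s1 and C3 shared the order of tumours 1, 2 and 3 with the 10 fibroblast and reticular stroma genes, which summed to 2879, 1552 and 1056 CPM in tumours and to 777, 933 and 468 CPM in Foxp3Ctrl nodes. Most of the tumour sums came from Col1a1 (1626, 871 and 550 CPM) and Col1a2 (1032, 538 and 367 CPM). In the control nodes the list was highest in node 2, whereas Serping1 and C1s1 were highest in node 1. On that list 4 genes were higher in every tumour and 5 lower in every tumour than in the control nodes. One of these 5, Ccl21a, had 0 counts in each tumour and 1, 2 and 4 counts in the control nodes, too few to compare. The blood endothelium, keratinocyte, and mammary and glandular epithelium lists also had the order of tumours 1, 2 and 3. The part of any of these cells in the fall of Serping1, C1s1 and C3 was not tested.

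Cd55 had 5.89, 1.95 and 2.90 CPM in tumours against 269, 263 and 249 CPM in Foxp3Ctrl nodes. Its fall of 70.2-fold was the steepest of the 9 genes (log2 fold change -6.13 ± 0.42 SE, edgeR adjusted p = 2.15e-05). Its copy Cd55b had 0 counts in the tumours and 29 over the 3 control nodes, at least 9.31-fold lower against a floor of 3 counts over the group (counting error only). The 6 B cell markers summed to 6.87, 4.47 and 7.19 CPM in tumours and to 3753, 3462 and 3491 CPM in Foxp3Ctrl nodes, and the 7 T cell markers to 32.6, 35.6 and 54.6 CPM in tumours and to 1222, 1147 and 1459 CPM in Foxp3Ctrl nodes. All 13 of these markers were lower in every tumour than in any control node, and their part in the fall of Cd55 was not tested.

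Cd59a went the opposite way, with 8.84, 11.8 and 18.7 CPM in tumours and 4.24, 6.25 and 4.79 CPM in Foxp3Ctrl nodes. It rose 2.66-fold (log2 fold change 1.41 ± 0.30 SE, edgeR adjusted p = 0.00349). The tumours followed the order of the 6 melanocyte markers, which summed to 17043, 18051 and 22392 CPM in tumours 1, 2 and 3 and to 10.8, 14.5 and 33.4 CPM in Foxp3Ctrl nodes. The control nodes did not follow that order. The T cell markers had the same order among the tumours, at 32.6, 35.6 and 54.6 CPM in tumours 1, 2 and 3. The part of the melanoma cells in the rise of Cd59a was not tested. The copy Cd59b stayed at or below 0.254 CPM in every library.

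C3ar1 had 46.9, 31.8 and 35.4 CPM in tumours and 0.964, 1.67 and 0.818 CPM in Foxp3Ctrl nodes. It rose 33.7-fold (log2 fold change 5.07 ± 0.32 SE, edgeR adjusted p = 5.79e-06), and the lowest tumour was far above the highest node. C5ar1 had 23.0, 19.9 and 17.7 CPM in tumours and 1.38, 4.32 and 1.52 CPM in Foxp3Ctrl nodes. It rose 8.56-fold (log2 fold change 3.10 ± 0.48 SE, edgeR adjusted p = 0.000839). Without control node 2, the highest node, its log2 fold change was 3.89.

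Both receptor genes are known from myeloid cells, whose markers did not move as one between the tissues. The 8 macrophage and monocyte markers summed to 931, 503 and 693 CPM in tumours and to 1939, 1937 and 1530.03 CPM in Foxp3Ctrl nodes. Adgre1, which encodes F4/80, and the Fc receptor gene Fcgr1 were higher in every tumour than in any control node, with Fcgr1 at 55.6, 24.0 and 25.8 CPM in tumours against 8.48, 10.1 and 5.89 CPM in Foxp3Ctrl nodes. Csf1r, Lyz2 and Ly6c2 were lower in every tumour, and the other 3 overlapped. The 8 neutrophil markers summed to between 11.4 and 16.8 CPM in tumours and to between 97.1 and 186 CPM in Foxp3Ctrl nodes. The part of these cells in the rise of the receptors was not tested.

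**Figure D3:**
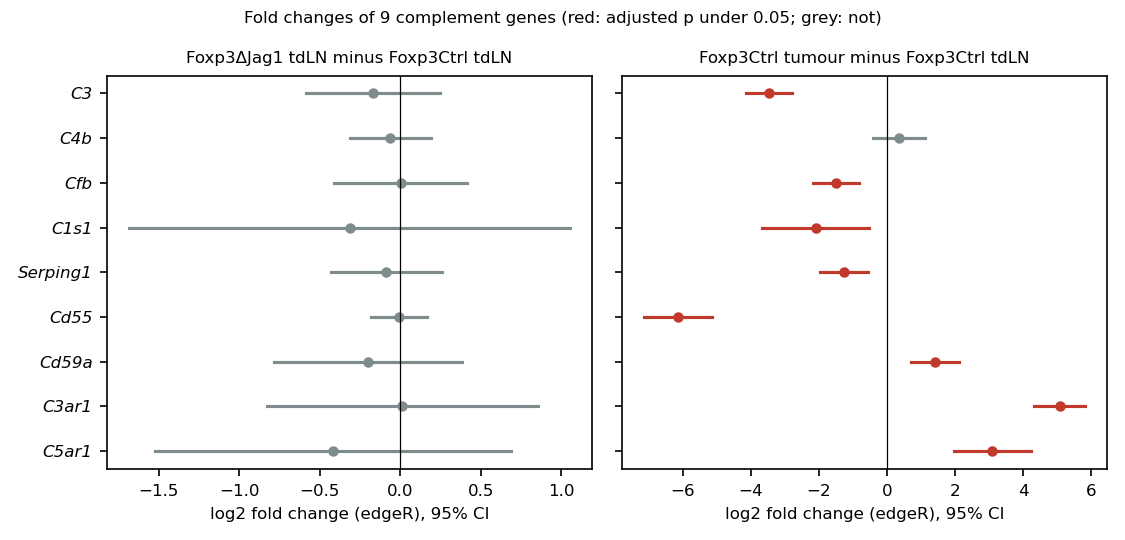
Log2 fold changes with 95% intervals from edgeR for the 9 genes, Foxp3ΔJag1 tdLN minus Foxp3Ctrl tdLN on the left and Foxp3Ctrl tumour minus Foxp3Ctrl tdLN on the right, on different horizontal scales, with red for an adjusted p under 0.05. All 9 intervals cross 0 on the left, and on the right C4b alone crosses 0, with values from -6.13 for Cd55 to 5.07 for C3ar1.

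Of the 48 other complement genes, 33 were tested between tumour and control node, of which 2 rose and 20 fell, at a median log2 fold change of -1.48. Without control node 2 or tumour 2 the number that rose was 4, and without control node 3 it was 5. The background is again 35.6% higher and 37.6% lower, and 5 of the 48 had no count in any library. Those that rose were C2, the classical-route partner of C4b in the C3 convertase, and C1rl, a C1r-like protease. C2 had 177, 126 and 195 CPM in tumours and 28.3, 24.9 and 20.3 CPM in Foxp3Ctrl nodes (log2 fold change 2.81, edgeR adjusted p = 1.24e-05). C1rl had 20.3, 16.6 and 18.6 CPM in tumours and 5.37, 4.83 and 4.79 CPM in Foxp3Ctrl nodes (log2 fold change 1.94, edgeR adjusted p = 1.35e-05).

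Of the terminal components tested 4 of 5 fell, of the further membrane regulators 4 of 4 and of the further receptors 4 of 5. Their median log2 fold changes were -2.91, -2.91 and -1.78. Of the soluble regulators, Clu, which encodes clusterin, had 10.3, 6.79 and 4.83 CPM in tumours and 1189, 1237 and 999 CPM in Foxp3Ctrl nodes (log2 fold change -7.23, edgeR adjusted p = 1.66e-06). Vtn, the vitronectin gene, fell by 5.15 on the log2 scale (edgeR adjusted p = 3.50e-07).

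Cr2, which encodes complement receptors of B cells and follicular dendritic cells, had 0.506, 0.342 and 0.592 CPM in tumours and 263, 152 and 277 CPM in Foxp3Ctrl nodes. Its fall was the steepest fitted in the pathway among genes with counts in both tissues (log2 fold change -8.86, edgeR adjusted p = 5.73e-07). The 4 measured genes of the follicular dendritic cell list summed to between 76.2 and 93.0 CPM in tumours and to between 1168 and 1488 CPM in Foxp3Ctrl nodes, all 4 lower in every tumour. Most of the node sums came from Mfge8 and Fcer2a, with means of 690 and 491 CPM, against 123 CPM for Cxcl13 and 8.02 CPM for Madcam1. In tumours Mfge8 alone had a mean of 83.4 CPM. The part of these cells in the result was not tested. Of the membrane regulators, Csmd1 fell by 5.32 (edgeR adjusted p = 4.04e-06) and Cr1l by 1.20 on the log2 scale (edgeR adjusted p = 1.21e-05). C8a, of the membrane attack complex, had 0 counts in the tumours and 58 in the control nodes, at least 18.6-fold lower against the same floor.

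The classical and lectin genes were mixed, with 2 that rose and 3 that fell of 13 tested and a median log2 fold change of 0.05. C1qa, C1qb and C1qc, the subunits of the recognition molecule C1q, did not pass, and they are named after their values were seen. C1qa had 187, 139 and 179 CPM in tumours and 159, 174 and 132 CPM in Foxp3Ctrl nodes. The log2 fold changes were 0.17, 0.39 and 0.05 for C1qa, C1qb and C1qc (edgeR adjusted p = 0.379, 0.156 and 0.839), and C1qb passed without control node 2 at 0.65 (edgeR adjusted p = 0.0154). The C1r copies did not pass, with -0.18 for C1ra and -2.73 for C1rb (edgeR adjusted p = 0.701 and 0.220), although with the mouse as a block, an alternative fit, C1rb passed at -2.52 (edgeR adjusted p = 0.000249). Without control node 3, C1rb stood at 0.40.

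Cfd, the factor D gene of the alternative route, was singled out after its values were seen because it was spread in every group. It had 67.8, 0.271 and 0.269 CPM in Foxp3ΔJag1 nodes, 97.8, 73.8 and 5.01 CPM in tumours and 0.275, 0.720 and 49.3 CPM in Foxp3Ctrl nodes. The adipocyte list of 7 genes, which includes Cfd, summed to 256, 25.4 and 20.7 CPM in Foxp3ΔJag1 nodes, 292, 323 and 33.9 CPM in tumours and 20.7, 83.3 and 204 CPM in Foxp3Ctrl nodes. The other 6 genes of the list summed to 188, 25.2 and 20.4 CPM in Foxp3ΔJag1 nodes, 194, 249.6 and 28.9 CPM in tumours and 20.5, 82.5 and 155 CPM in Foxp3Ctrl nodes. They were highest in the library highest in Cfd in both node groups but not in the tumours, and the part of fat tissue was not tested.

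**Figure D4:**
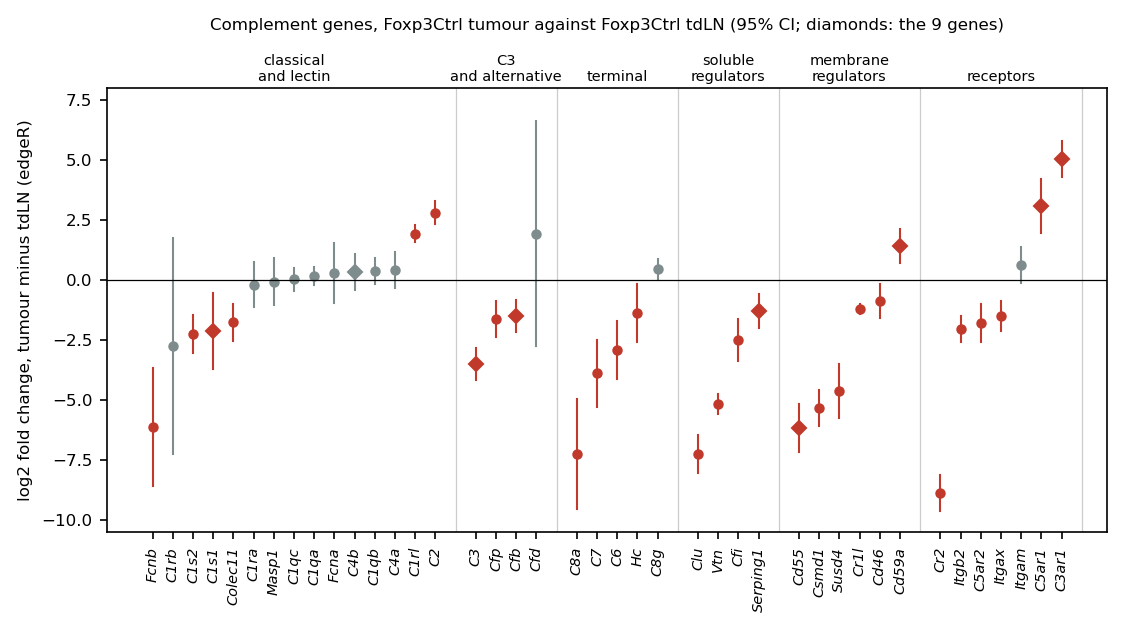
Log2 fold change (Foxp3Ctrl tumour minus Foxp3Ctrl tdLN) with 95% intervals from edgeR for the 9 genes and other complement genes tested, grouped by role, with diamonds for the 9 genes and red for an adjusted p under 0.05. Points run from -8.86 for Cr2 to 5.07 for C3ar1; the point of C8a is a fitted value of a gene with no count in tumours.

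Genes with the most similar profile were found by the root mean square difference of centred log2 CPM over the 9 libraries among 14282 protein-coding genes. A small constant was added to each CPM before the log, which shrinks the fold differences of genes with low CPM. Hpgd, with means of 1.10 CPM in tumours and 23.2 CPM in Foxp3Ctrl nodes, is such a gene. Cd55 had the closest partner, Cmah at 0.0945, followed by the class II gene H2-Eb2 at 0.227. Serping1 lay closest to Ahr (0.105), Gadd45g (0.122) and Rem1 (0.126). C4b lay closest to Lacc1 (0.126), Gbp3 (0.150) and Tnip3 (0.159), of which Gbp3 is on the interferon response list. For C3 the nearest were Nfatc1 (0.173), Susd2 (0.178) and Hpgd (0.187), and for Cfb they were Tfec (0.145), Cyp26b1 (0.154) and Gm15448 (0.161).

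Among the members that were higher in tumours, Cd59a was nearest to Tmco3 (0.209), Tspan17 (0.227) and Mfsd11 (0.227), C3ar1 to Col4a4 (0.226), Neo1 (0.234) and Timp1 (0.244), and C5ar1 to Tspan12 (0.279), Oaf (0.281) and Gpc3 (0.285). C1s1 had the least close partners of the 9, with Gdf10 at 0.371, Scg3 at 0.376 and Cyp4b1 at 0.390. These distances are descriptions over 9 libraries.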

How the data were processed

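The authors deposited raw read counts per gene, as whole numbers, in 1 table for nodes and 1 for tumours. Per the submitters' processing notes, Trimmomatic 0.36, STAR 2.5.2b and featureCounts of Subread 1.5.2 were used with GRCm38; which annotation and strand option served is not given in the sources used here, and overlapping or antisense genes may share reads. Of 49315 gene identifiers, 48970 matched GENCODE M21, the source of symbols and positions. The labels list 13 samples; 9 libraries were used, and 3 columns that match no label were not used in any step.

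CPM values use each library's total count, without normalization factors, and floors and intervals take in counting error alone. The test was that of edgeR 4.0.16 in R 4.3.3 (quasi-likelihood test, TMM, filterByExpr, robust dispersion) with Benjamini-Hochberg adjustment over all genes tested and an FDR of 0.05, fitting the 6 libraries of each comparison. Both comparisons share the Foxp3Ctrl nodes. P-values reflect the spread among these mice. Replicate libraries differed by more than sampling (chi-square of 17.1 to 75.4 per degree of freedom). The scripts were checked on simulated counts. Promoter bases came from RefSeq.

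The members, the lists of complement and marker genes and the tests were chosen with earlier results of these data known. The text names the 9 members, Jag1 and Foxp3, the near copies, up to 5 other called complement genes per direction (or the 3 with the smallest p where none was called) and the 3 genes with the most similar profile to each member. Some genes that this rule or the lists take in are not reported here. By their library names the tumour and node with the same number share a mouse, which pairs them; within pairs, deviations from the group mean had correlations of -0.08, 0.13 and -0.0027. The alternatives comprised DESeq2 1.42.0 and its size factors, library size only, limma-voom (limma 3.58.1), other filters, non-robust dispersion, a replicate block, a joint fit of 9 libraries, other FDR thresholds, near copies summed (added after seeing the data) and leaving out each replicate.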

Additional observations from a re-analysis of the deposited data

How the results depend on the processing

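In the node comparison 0 of the 9 genes and 0 of the other complement genes were called under every alternative run, including each left-out library. The count over all genes was less stable, at 7 with edgeR against 44 with DESeq2, 16 with no filter on low counts, 11 with the replicate block, 21 without Foxp3Ctrl node 3, 16 without Foxp3ΔJag1 node 2, and 10 without Foxp3ΔJag1 node 1 or Foxp3Ctrl node 1. Log2 fold changes near 0 changed sign. Cfb was at -0.0017 with DESeq2 and with its size factors, at -0.0081 with no filter and at -0.0073 in the joint fit. Cd55 was at 0.014 with library size only and at 0.0027 with the filter on CPM (1 or more in 3 or more libraries), and C3ar1 at -0.0068 in the joint fit. Without single nodes Cfb ran from -0.18 to 0.11, Cd55 from -0.063 to 0.029, C4b from -0.14 to 0.046, Serping1 from -0.25 to 0.039, C3ar1 from -0.27 to 0.41 and C5ar1 from -0.70 to 0.35. The causes were not tested.

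Between tumour and control node, 3 to 4 members rose and 4 to 5 fell without single libraries, and 2 to 5 other complement genes rose and 18 to 21 fell. The joint fit of 9 libraries gave 4 others that rose, against 2. Values that changed sign without single libraries were C4b (-0.035 to 0.65), C1ra (-0.49 to 0.028), C1qc (-0.14 to 0.28) and C1rb (-5.44 to 0.40). The replicate block, which pairs tumour and node of 1 mouse, called C1rb (-2.52) and Itgam (0.55, edgeR adjusted p = 0.0381) in addition and changed no call of a member. In the node comparison the numbers mark different mice, whose deviations correlated at -0.17, 0.03 and -0.12. With 3 libraries per group, differences between the node groups of any size inside the 95% intervals remain possible.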
